A study of Mus musculus with 12 samples.

Results

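The genes described here were 10 members of the cytosolic chaperone system: Hspa1a, Hspa1b, Hspa8, Hsp90aa1, Hsph1, Hspb1, Hspb7, Cryab, Dnajb1 and Bag3. They were picked by symbol, and each symbol matched a single entry among the 51734 gene symbols of the count table. The libraries came from atria and ventricles of female FvB mice aged 10 weeks, and all animals were induced with dox from PN1. CUG960 +dox mice were TREDT960I (homozygous) and MHCrtTA (hemizygous), whereas MHCrtTA +dox controls carried MHCrtTA(hemi) alone, so that the activator transgene and dox were shared by both groups. The MHC promoter drives the activator in cardiomyocytes, and RNA with 960 interrupted CUG repeats from a human DMPK segment is therefore switched on in those cells, as a model of myotonic dystrophy type 1. There were 3 mice in each genotype (controls V327, V333 and V334, and CUG960 +dox mice V119, V120 and V123), each with 1 atrial and 1 ventricular library, which gave 12 libraries of 116127966 to 160676189 counts. Levels are given as counts per 1000000 counts (CPM), scaled over the 12 libraries together by TMM (trimmed mean of M values).

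Chaperones bind unfolded or partly folded proteins and either hold them or help them fold. HSP70 proteins do this in a cycle of ATP binding and release, in which J-domain proteins such as DNAJB1 deliver the client and start ATP hydrolysis, and nucleotide exchange factors such as HSPH1 and BAG3 open the HSP70 again. HSP90 takes over clients such as kinases and steroid receptors at a late step, and the small heat shock proteins HSPB1, HSPB7 and CRYAB hold misfolding proteins without ATP. In heart muscle BAG3 links HSP70 and small heat shock proteins to the selective autophagy of damaged Z-disc proteins. Cells raise several of these genes together through heat shock factor 1, which binds repeats of GAA and its reverse complement in their promoters, and Hspa1a and Hspa1b are the members known for the strongest induction.

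Hspa1a and Hspa1b are near copies of each other on chromosome 17 of GRCm38, both on the minus strand and each made of 1 exon. Hspa1a lies at chr17:34969190-34972156 and Hspa1b at chr17:34956436-34959238, with 9951 bases between them. The body of Hspa1a overlaps the gene model Gm20481 on the other strand, and whether the counting used strand is not given in the sources used here. The other members are spread over the genome, with Hspa8 at chr9:40800984-40810087 (plus strand), Hsp90aa1 at chr12:110690605-110702728 (minus strand), Hsph1 at chr5:149614287-149636376 (minus strand), Hspb1 at chr5:135887919-135889563 (plus strand). The rest are Hspb7 at chr4:141420779-141425311 (plus strand), Cryab at chr9:50751325-50756636 (plus strand), Dnajb1 at chr8:83608193-83612653 (plus strand) and Bag3 at chr7:128523616-128546981 (plus strand). All 10 are annotated as protein coding. The promoters of Hspa1a and Hspa1b are shown because they hold a heat shock element motif, GAANNTTC, and differ by only a few bases, so that the 2 genes form a natural pair in all that follows. The 250 bases before each start site are given from RefSeq on GRCm38.p6, 5′ to 3′ on the gene's strand, with matches to GAANNTTC in capitals. Hspb1, a member called lower in atria of CUG960 +dox mice, holds 2 such matches and is given with them. Bag3 also held a GAANNTTC match, but after its start site and so outside the bases shown.
Hspa1a, chr17:34972157-34972406, minus strand: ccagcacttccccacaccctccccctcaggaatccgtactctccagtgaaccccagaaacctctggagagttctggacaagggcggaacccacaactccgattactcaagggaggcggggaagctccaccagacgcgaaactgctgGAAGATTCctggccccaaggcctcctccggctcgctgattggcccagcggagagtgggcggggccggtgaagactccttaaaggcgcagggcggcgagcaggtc
Hspa1b, chr17:34959239-34959488, minus strand: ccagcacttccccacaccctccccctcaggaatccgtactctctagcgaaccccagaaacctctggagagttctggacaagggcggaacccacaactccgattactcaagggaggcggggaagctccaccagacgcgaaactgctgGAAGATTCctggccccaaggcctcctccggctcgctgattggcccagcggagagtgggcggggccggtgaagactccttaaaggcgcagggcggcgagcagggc
Hspb1, chr5:135887669-135887918, plus strand: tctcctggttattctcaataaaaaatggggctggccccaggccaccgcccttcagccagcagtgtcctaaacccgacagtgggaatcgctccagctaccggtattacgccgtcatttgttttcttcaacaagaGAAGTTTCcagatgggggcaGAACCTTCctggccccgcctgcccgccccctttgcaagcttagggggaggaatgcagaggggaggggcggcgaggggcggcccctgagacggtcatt
The Hspa1a and Hspa1b sequences differed at 3 of 250 bases (98.8% identity), and the match began 104 bases before the start in both. In Hspb1 the matches began 117 and 97 bases before the start. RefSeq windows of 250 bases before to 50 after the start were found for 7 of the 10 genes, not for Hspa8, Hsp90aa1 and Cryab. The motif GAANNTTC, which reads the same on both strands, is present in 7.86% of all 32851 promoter windows, and TTCNNGAA, likewise the same on both strands, in 8.52%. A run of 3 units, GAANNTTCNNGAA or TTCNNGAANNTTC, which contains both shorter motifs, is present in 0.603% of windows. Of the 7 genes with a window 5 held at least 1 match of any kind, and only Hsph1 held a run of 3, within its first transcribed bases, here with 8 bases on each side and the run in capitals.
Hsph1: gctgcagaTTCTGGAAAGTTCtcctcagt
A match describes the letters in the window and does not show that a factor binds there.

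The near identity of the pair also limits the counts. Of all stretches of 150 bases (the read length) in Hspa1a transcripts, 39.7% also occurred in transcripts of another gene, mostly Hspa1b, and for Hspa1b the share was 40.5%. Hspb1 shared 39.1% of its stretches with 1 other gene, Hsp90aa1 28.5% with 3 and Hspa8 22.8% with 4, while Hsph1, Hspb7, Cryab, Dnajb1 and Bag3 shared none. Levels of Hspa1a and Hspa1b are therefore uncertain as separate values, and their sum was tested as well. Hspb1 and Hsp90aa1, which are called below, carry a similar limit. No sum with the genes that share their stretches was tested.

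Both tissues carried the markers of their labels. Myl2, the ventricular regulatory light chain, averaged 18.0 CPM in control atria and 9392 CPM in control ventricles, and Nppa, which encodes atrial natriuretic peptide, averaged 15917 CPM in control atria and 62.5 CPM in control ventricles. All 5 cardiomyocyte genes followed (Myh6, Actc1, Tnnt2, Tnni3 and Ryr2) were well above 0 in every library, with Ryr2 the lowest at 454 to 944 CPM.

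The atrial library of control V334 stood apart from the other atrial libraries. Its Hspa1a, Hspa1b and Dnajb1 levels were 5.30, 4.89 and 3.55 times the mean of the other control atria, whereas 2.44% of 17650 genes reached a ratio of 2 there. The immediate early genes, a set of 20 fast-response transcription factors and regulators, summed to 2207 CPM in this library, against 556 and 443 CPM in the atria of V327 and V333 and 321 to 536 CPM in the atria of CUG960 +dox mice. Among them 14 of 20 were at least 2-fold above the mean of the other control atria, for example Fos at 113 CPM against 2.92 and 2.23 CPM and Jun at 412 CPM against 53.6 and 41.6 CPM (these examples were chosen after their values were seen). Summed immediate early genes in the ventricles of V334 were 430 CPM, within the 298 to 433 CPM of the other ventricular libraries. Macrophage and leukocyte markers also summed highest in the atria of V334, at 246 CPM against 166 and 163 CPM in the other control atria and 159 to 193 CPM in CUG960 +dox atria. The part of these cells in its heat shock gene levels was not tested. The atrial results on the 10 genes are therefore given with and without V334.

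**Figure D1:**
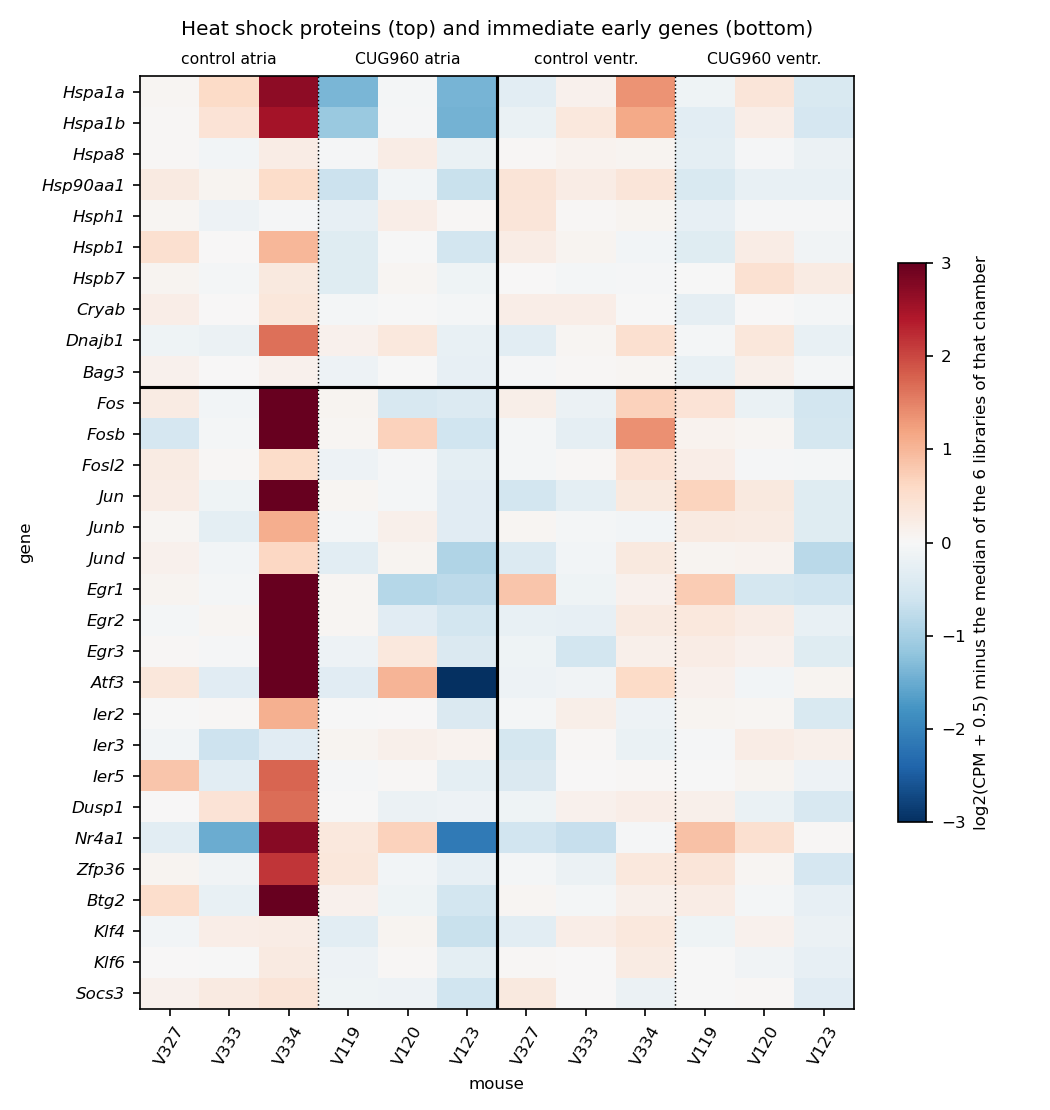
Each cell shows the level of a gene (rows) in a library (columns, named by mouse) as log2(CPM + 0.5) minus the median of the 6 libraries of the same chamber, with the colour scale ending at -3 and 3. The 9 heat shock protein genes and Bag3 stand above the line and 20 immediate early genes below it. The atria of control V334 are dark red for Hspa1a, Hspa1b, Dnajb1 and for most immediate early genes.

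To compare the members with one another, mean CPM was divided by the length of the merged exons. This length takes in the exons of every annotated transcript of a gene (7266 bases in Hsph1 and 4301 in Hspa8, against 1031 in Hspb1). Which transcripts were expressed was not tested, so the order depends on the annotation as well as on the levels. In control atria the order of the levels in CPM per kilobase was Cryab (828 ± 95.9, mean ± SD, n = 3), Hspb7 (686 ± 86.9), Hspb1 (285 ± 96.3), Hspa8 (208 ± 21.5), Hsp90aa1 (98.5 ± 16.1), Bag3 (85.3 ± 4.27), Hspa1b (15.7 ± 15.4), Dnajb1 (13.5 ± 10.8), Hspa1a (8.91 ± 9.12) and Hsph1 (7.10 ± 0.534). The ranges of Cryab and Hspb7 overlapped, as did those of Hspb1 and Hspa8, of Hsp90aa1 and Bag3, and of the 4 genes at the low end. Without V334 the means of the low genes were 7.32 for Dnajb1, 7.11 for Hsph1, 6.85 for Hspa1b and 3.66 for Hspa1a, so that their order changed, while the order of the upper 6 did not. In control ventricles the order was Cryab (1306 ± 104), Hspb7 (1226 ± 36.3), Hspa8 (260 ± 6.62), Hspb1 (184 ± 19.0), Bag3 (104 ± 3.75), Hsp90aa1 (80.05 ± 4.84), Hsph1 (12.8 ± 1.65), Dnajb1 (6.87 ± 1.95), Hspa1b (2.16 ± 1.12) and Hspa1a (0.907 ± 0.677). There the ranges overlapped for the top pair, Cryab and Hspb7, and for the bottom pair, Hspa1b and Hspa1a, while the other neighbours were separated. Cryab and Hspb7 thus held the top of the order in both chambers, and together they made up 59.9% to 77.9% of the members' summed CPM over the 12 libraries.

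**Figure D2:**
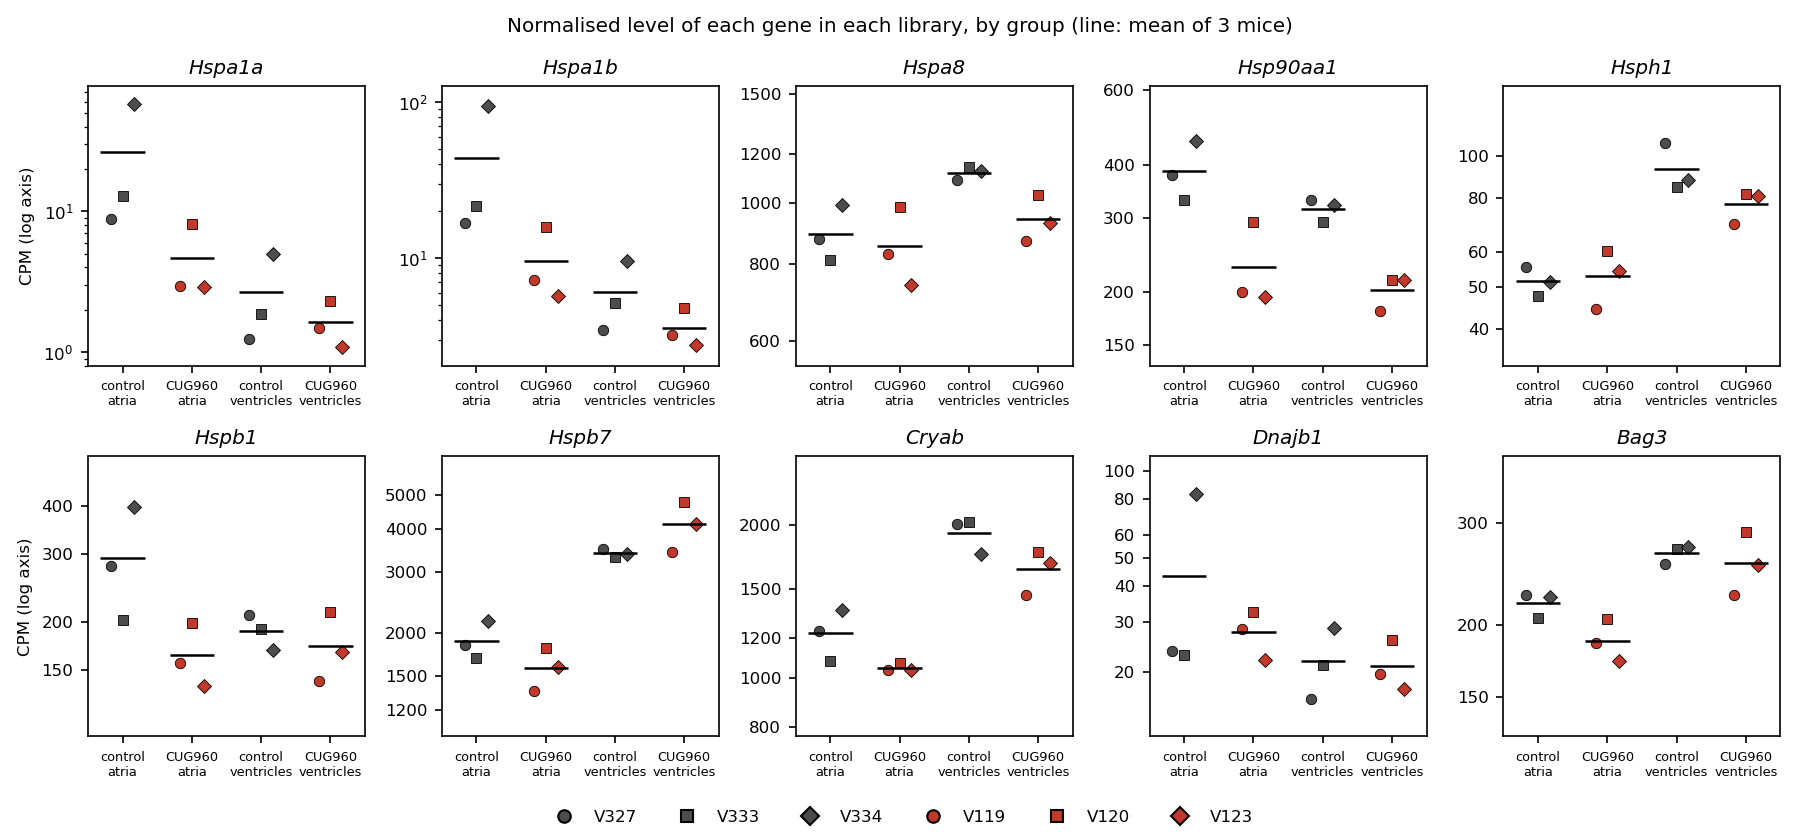
Each panel plots the CPM of 1 gene on a log axis in the 12 libraries, with a symbol for each mouse and a line at the mean of 3 mice. Hsp90aa1 is lower in CUG960 +dox mice in both chambers with no overlap, Hspa1a and Hspa1b are high in atria and highest in V334, and Hspb7 and Cryab are higher in ventricles.

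The first comparison asked whether the repeat RNA changed these genes in atria. Of the 10 members, 2 fell and 0 rose in CUG960 +dox atria at an adjusted P value below 0.05 and a fold change of at least 1.5, against a background of 5.49% of all 17650 genes tested. They were Hsp90aa1, the inducible cytosolic HSP90, and Hspb1, a small heat shock protein that also binds actin filaments. The median log2 fold change of the members was -0.45, and that of all genes was -0.01. In 6 of the 10 genes the 2 groups did not overlap, each time with CUG960 +dox mice lower, while 35.7% of all genes did not overlap in either direction. Without V334, 0 of 10 members passed the test in edgeR (4.27% of all genes did), 4 were below an unadjusted P of 0.05 (23.9% of all genes were), and the members' median was -0.17; DESeq2 on all 6 libraries called 3. The count was also 0 without V119 or without V123 and 1 without V120. Without V327 it was 2, but the genes were then Hspa1a (adjusted P = 0.040) and Hspa1b (adjusted P = 0.046). Hsp90aa1 (-0.78, adjusted P = 0.058) and Hspb1 (-0.88, adjusted P = 0.089) then missed the threshold, with estimates near those from all libraries. The share of all genes called is not given for DESeq2 or for the fits without V119, V120, V123 or V327. Their counts of members therefore have no background beside them.

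The second comparison asked the same in ventricles. There 1 of 10 members, Hsp90aa1, fell and 0 rose, against a background of 4.75% of 16909 genes. The members' median log2 fold change was -0.24, and groups did not overlap for 3 members, all lower in CUG960 +dox mice, against 31.2% of all genes. The count was also 1 without V334 (3.95% of all genes passed) and 0 without V119, where the estimate for Hsp90aa1 was under the fold limit.

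**Figure D3:**
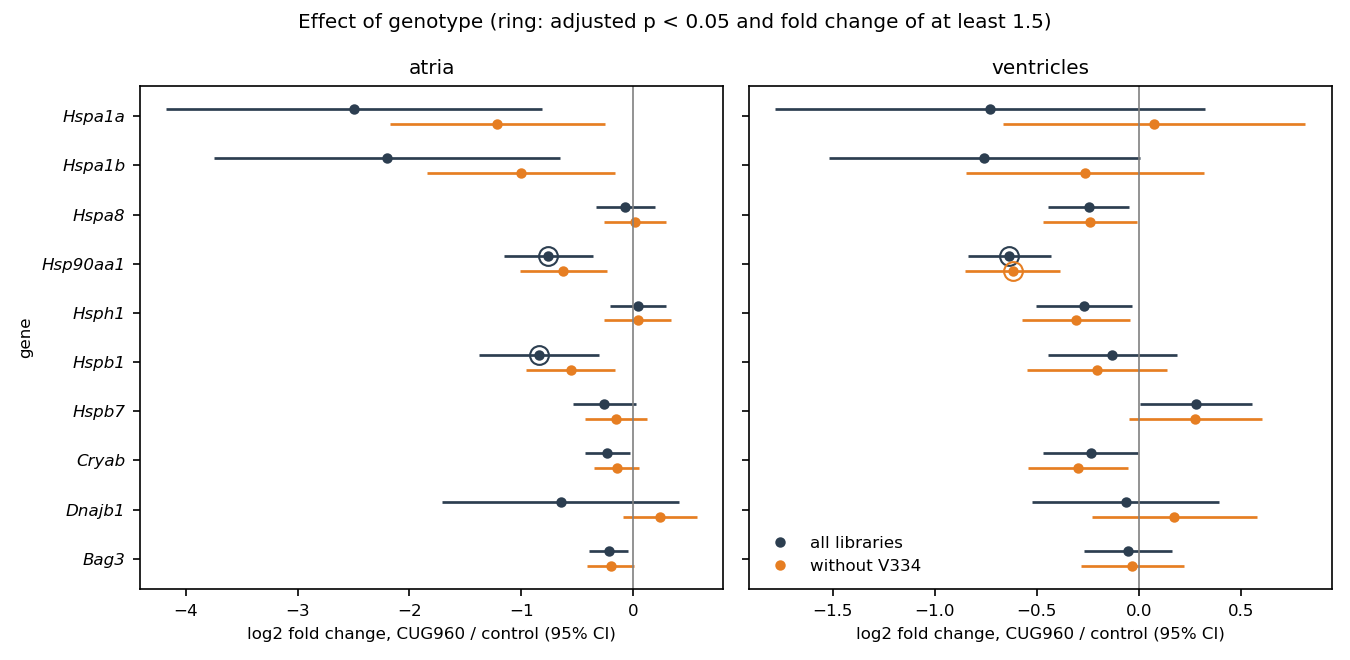
Points show the log2 fold change of each gene between CUG960 +dox mice and controls with its 95% confidence interval, in atria (left) and ventricles (right), from all libraries (dark) and without mouse V334 (orange). Rings mark genes past an adjusted P of 0.05 and a fold change of 1.5. Hsp90aa1 lies near -0.6 to -0.8 in both chambers, and Dnajb1 changes sign in both without V334.

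Hsp90aa1 was the member whose difference was seen in both chambers. In atria it stood at 378, 329 and 455 CPM in controls V327, V333 and V334, and at 200, 293 and 195 CPM in CUG960 +dox mice V119, V120 and V123. All 3 CUG960 +dox libraries were below the lowest control, V120 by the smallest margin. The log2 fold change was -0.76 (SE 0.17, adjusted P = 0.025), a level 0.592 times that of controls. Without V334 it was -0.62 (SE 0.17, adjusted P = 0.063), which no longer passed. Nor did it pass without V327 (-0.78, adjusted P = 0.058), V119 (-0.67, adjusted P = 0.094) or V123 (-0.66, adjusted P = 0.066), with estimates of similar size. In ventricles the levels were 330, 293 and 321 CPM in controls and 181, 213 and 213 CPM in CUG960 +dox mice. These groups were wide apart relative to their spread, and the log2 fold change was -0.63 (SE 0.09, adjusted P = 0.0031). It was -0.62 without V334 (adjusted P = 0.010). Leaving out V119 gave -0.56, which passed the adjusted P (0.010) but was under the 1.5-fold limit. Its constitutive counterpart Hsp90ab1, the more abundant cytosolic HSP90, had log2 fold changes of 0.04 in atria (adjusted P = 0.79) and -0.07 in ventricles (adjusted P = 0.66), with means of 1014 and 1038 CPM in control and CUG960 +dox atria.

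Hspa1a and Hspa1b, the stress-inducible HSP70 genes, had the lowest point estimates in atria but also the widest spread. Hspa1a stood at 8.78, 12.9 and 57.6 CPM in atria of V327, V333 and V334, and at 2.97, 8.18 and 2.89 CPM in V119, V120 and V123. Every CUG960 +dox library was below every control, and V334 alone was more than 4 times the next. The log2 fold change was -2.49 (95% confidence interval -4.17 to -0.81), and its adjusted P value of 0.057 missed the threshold. Without V334 it was -1.21 (-2.18 to -0.25, adjusted P = 0.12). Hspa1b followed it closely, with 16.7, 21.7 and 94.0 CPM in control atria and 7.19, 15.8 and 5.73 CPM in CUG960 +dox atria. Its log2 fold change was -2.20 (SE 0.67, adjusted P = 0.065), or -1.003 without V334 (SE 0.37, adjusted P = 0.14). The sum of both genes gave -2.31 (adjusted P = 0.061). Hspa1a and Hspa1b passed without V327 (adjusted P = 0.040 and 0.046), without the filter on low counts (0.0064 and 0.0086) and in a single fit of all 12 libraries (0.034 and 0.031), and Hspa1a also in DESeq2 (0.035). The fit without V327 keeps V334 among its controls. Of 13 alternatives, 9 for Hspa1a and 10 for Hspa1b gave no call, as in the main fit. With a mouse left out, adjusted P in edgeR reached 0.178 for Hspa1a and 0.192 for Hspa1b.

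In ventricles both genes were low. Hspa1a was at 1.24, 1.86 and 4.98 CPM in controls, which rested on 137, 196 and 559 counts, and at 1.49, 2.31 and 1.08 CPM in CUG960 +dox mice. The groups overlapped, and the log2 fold change of -0.73 (adjusted P = 0.37) was 0.08 without V334. Hspa1b was at 3.46, 5.17 and 9.54 CPM in controls and 3.20, 4.80 and 2.75 CPM in CUG960 +dox mice, again with overlap (log2 fold change -0.76, adjusted P = 0.20; -0.26 without V334). V334 was the highest control in both chambers for Hspa1a, Hspa1b and Dnajb1, whereas 11.6% of 16432 genes had that pattern.

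Because each mouse gave both chambers, the ratio of the atrial to the ventricular level could be formed within each animal. For Hspa1a this ratio was 7.10, 6.96 and 11.6 in controls V327, V333 and V334, and 1.998, 3.55 and 2.68 in CUG960 +dox mice V119, V120 and V123. The 2 groups were apart. V334 had the highest ratio, so leaving it out could not make them overlap. For Hspa1b the ratios were 4.83, 4.20 and 9.86 in controls and 2.25, 3.30 and 2.08 in CUG960 +dox mice, also apart. In 4 of 10 members the ratios of the groups did not overlap, against 18.7% of 18327 genes. Besides this pair these were Hspb7, whose ratios were lower in CUG960 +dox mice (0.380 to 0.397 against 0.513 to 0.641), and Hsph1, whose ratios were higher (0.639 to 0.741 against 0.519 to 0.586).

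The test of this difference, the chamber by genotype interaction, found 0 of 10 members in edgeR when libraries were treated as unpaired, against 1.38% of all genes; 2 members (Hspb1 and Hspb7) were below an unadjusted P of 0.05, against 12.3% of all genes (0 members and 12% of genes without V334), and DESeq2 also called 0. With the mouse as a block 1 member was called, Hspa1a, against a background of 1.82%. Its blocked interaction was 1.65 on the log2 scale (SE 0.25, adjusted P = 0.016), that is, the ratio of CUG960 +dox to control was in ventricles 3.13 times that in atria. Unpaired, the same estimate was 1.76 (SE 0.99, adjusted P = 0.53). With the block and without V334 it was 1.39 (SE 0.24, adjusted P = 0.024). For the sum of Hspa1a and Hspa1b the unpaired interaction was 1.555 (SE 0.89, adjusted P = 0.54). No blocked value of the sum is given here, so the call rests on Hspa1a as a separate value. Hspa1b had a blocked interaction of 1.23 (SE 0.30, adjusted P = 0.088) and Hspb7 of 0.52 (SE 0.12, adjusted P = 0.065), neither past the threshold.

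**Figure D4:**
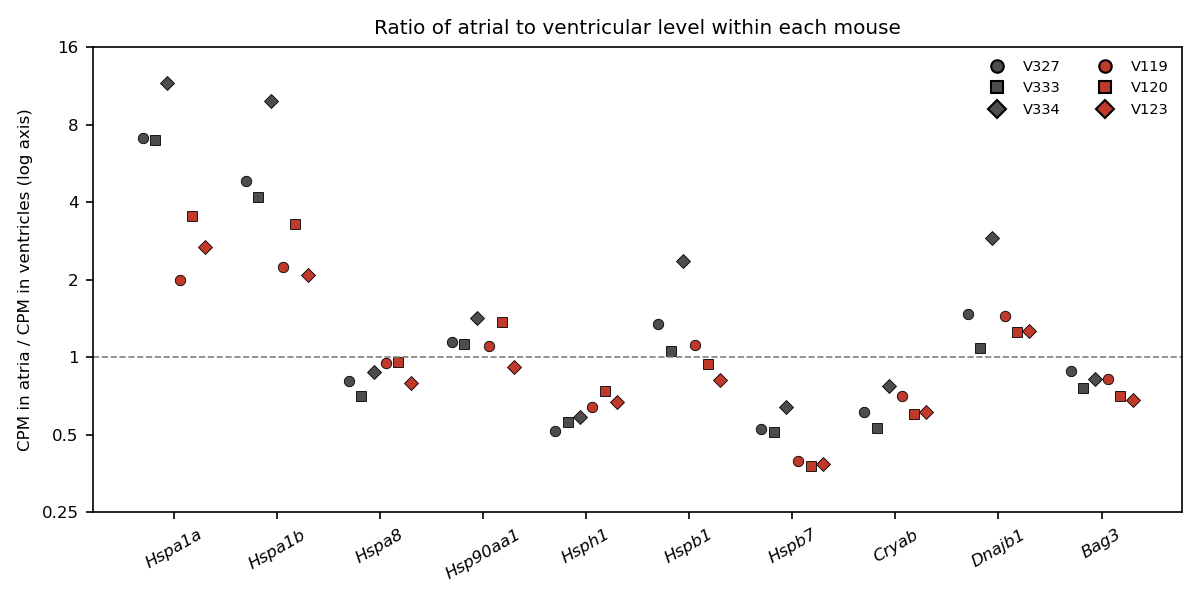
Points show, for each gene, the CPM in atria divided by the CPM in ventricles of the same mouse on a log axis, with controls in grey and CUG960 +dox mice in red. For Hspa1a the controls lie between 6.96 and 11.6 and the CUG960 +dox mice between 1.998 and 3.55, and most other genes show overlapping groups.

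Hspa8, the constitutive HSP70 that carries most folding work in unstressed cells, was abundant and varied little. In atria it was at 877, 809 and 993 CPM in controls and 830, 988 and 740 CPM in CUG960 +dox mice, with overlap and a log2 fold change of -0.07 (95% confidence interval -0.33 to 0.20), or 0.02 without V334 (-0.26 to 0.30). In ventricles it was at 1088, 1143 and 1128 CPM in controls and 870, 1031 and 931 CPM in CUG960 +dox mice. All CUG960 +dox ventricles were below all controls, but the log2 fold change of -0.25 did not pass (SE 0.09, adjusted P = 0.11). Hsph1, an HSP110 that acts as an exchange factor for HSP70, was at 44.6 to 60.4 CPM in the 6 atrial libraries with mixed groups (log2 fold change 0.04, adjusted P = 0.83; 0.04 without V334). In ventricles it was at 107, 84.9 and 87.8 CPM in controls and 69.7, 81.5 and 80.8 CPM in CUG960 +dox mice, which did not overlap (log2 fold change -0.27, adjusted P = 0.14).

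Dnajb1, the stress-inducible J-domain partner of HSP70, depended on 1 library. It was at 23.8, 23.1 and 83.3 CPM in control atria and 28.4, 32.5 and 22.2 CPM in CUG960 +dox atria. The estimate of -0.65 with all libraries (adjusted P = 0.39) turned to 0.24 without V334 (adjusted P = 0.36). In ventricles the 6 libraries ranged from 16.2 to 28.6 CPM with overlap (log2 fold change -0.06, adjusted P = 0.88). Bag3 was at 226, 206 and 224 CPM in control atria and 186, 205 and 173 CPM in CUG960 +dox atria. V120 was just below the lowest control, so the groups did not overlap, and the log2 fold change was -0.22 (SE 0.08, adjusted P = 0.095), or -0.20 without V334 (adjusted P = 0.23). In ventricles Bag3 was at 255, 270 and 272 CPM in controls and 226, 290 and 253 CPM in CUG960 +dox mice, with V120 above all controls and the other two below (log2 fold change -0.05, 95% confidence interval -0.27 to 0.16).

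Among the small heat shock proteins, Hspb1 fell in atria. It was at 280, 203 and 400 CPM in control atria and 156, 199 and 136 CPM in CUG960 +dox atria. V333 and V120 nearly met, and V334 was the highest control. The log2 fold change was -0.84 (SE 0.23, adjusted P = 0.047), and without V334 it was -0.56 (SE 0.17, adjusted P = 0.092). Leaving out any other mouse but V333 also took its adjusted P above the threshold, to between 0.065 and 0.14. The estimates in those fits ran from -1.01 (without V120) to -0.73 (without V123), so these calls were lost with estimates of similar size. In ventricles Hspb1 was at 209, 192 and 170 CPM in controls and 141, 212 and 168 CPM in CUG960 +dox mice, with overlap (log2 fold change -0.13, adjusted P = 0.61). The difference between the chambers was 0.71 in the unpaired interaction (adjusted P = 0.37) and 0.66 in the blocked one (adjusted P = 0.30), and did not pass in either. Unpaired and without V334 it was 0.36 (adjusted P = 0.66).

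Hspb7, a small heat shock protein of heart and skeletal muscle that binds filamin, was the most abundant member by CPM. In atria it was at 1843, 1694 and 2165 CPM in controls and 1362, 1816 and 1597 CPM in CUG960 +dox mice (log2 fold change -0.26, adjusted P = 0.20; -0.15 without V334, adjusted P = 0.50). In ventricles it was at 3502, 3303 and 3380 CPM in controls and 3430, 4779 and 4137 CPM in CUG960 +dox mice. V120 and V123 were above all controls there and V119 was among them, with a log2 fold change of 0.28 (SE 0.12, adjusted P = 0.19). Cryab, the αB-crystallin that stabilises desmin, was at 1238, 1077 and 1360 CPM in control atria and 1033, 1068 and 1035 CPM in CUG960 +dox atria. The 3 CUG960 +dox values lay close together and all below the lowest control, but the log2 fold change of -0.23 did not pass (SE 0.09, adjusted P = 0.12; -0.15 without V334, adjusted P = 0.35). In ventricles the levels were 2011, 2029 and 1754 CPM in controls and 1460, 1771 and 1689 CPM in CUG960 +dox mice (log2 fold change -0.24, adjusted P = 0.19). The gene body of Cryab overlaps that of Hspb2 on the other strand by 1030 bases, and without strand-aware counting reads within that overlap could not be told apart. Hspb2 averaged 75.3 and 78.3 CPM in control and CUG960 +dox atria.

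Mice differed in the whole set. V120 had the highest level among the 3 CUG960 +dox mice in both chambers for 9 of 10 members, all but Hsp90aa1, whereas it did so for 15.2% of 16432 genes. The members' summed level was 4686 CPM in atria of V120 against 3850 and 3962 CPM in V119 and V123, and 8410 CPM in its ventricles against 6402 and 7493 CPM. The means of the CUG960 +dox group thus rest in part on this animal.

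The control hearts alone show how these genes are set in the 2 chambers. At an adjusted P below 0.05 and a fold change of at least 1.5, 6 of 10 members differed between ventricles and atria, 3 in each direction, against 34.9% of 17451 genes. With no fold limit the count was 8, against 55.7% of all genes, and groups did not overlap for 7 members, against 64.7%. Hspa1a and Hspa1b were lower in ventricles, by log2 fold changes of -3.28 (SE 0.79, adjusted P = 0.0078) and -2.85 (SE 0.68, adjusted P = 0.0074). Without V334 these were -2.80 (adjusted P = 1.0e-04) and -2.15 (adjusted P = 1.4e-04). Hspb1 was lower too (-0.62, adjusted P = 0.037), but not without V334 (-0.26, adjusted P = 0.18), without V327 (-0.73, adjusted P = 0.11) or in DESeq2 (-0.61, adjusted P = 0.067). Hsph1 (0.86, SE 0.10, adjusted P = 1.5e-04), Hspb7 (0.85, SE 0.10, adjusted P = 1.8e-04) and Cryab (0.67, SE 0.11, adjusted P = 8.8e-04) were higher in ventricles, and their estimates without V334 were 0.90, 0.95 and 0.81, all past the test. Without V333 Cryab was at 0.54, under the fold limit. With the mouse as a block 6 members were again called, against 35% of genes, with Dnajb1 (-0.73, adjusted P = 0.024) in place of Hspb1 (-0.57, under the 1.5-fold limit). Unpaired and without V334, Dnajb1 was at -0.32 (adjusted P = 0.093). The mitochondrial chaperones, a list of 12, gave a contrast: all 12 were higher in control ventricles, with a median log2 difference of 0.94. Other lists moved in the same direction as Hspa1a and Hspa1b. In control ventricles 11 of 20 immediate early genes (median log2 difference -1.39), 6 of 10 macrophage and leukocyte markers (-0.96) and 7 of 10 fibroblast markers (-0.83) were lower than in atria, and without V334 the counts were 8, 6 and 8 and the medians -0.69, -0.81 and -0.86. Other lists leaned toward ventricles, as Hsph1, Hspb7 and Cryab did. Of 10 smooth muscle and pericyte markers 6 were higher in control ventricles and 1 was lower (median 0.79). Of 10 endothelial markers 4 were higher and 2 were lower (median 0.40). Without V334 these medians were 0.71 and 0.38. The part of these differences in the chamber results was not tested. Mitochondrially encoded genes took 11.8% to 12.2% of counts in control atria and 19.6% to 20.5% in control ventricles. In CUG960 +dox mice the shares were 10.9% to 12% in atria and 15.3% to 18.4% in ventricles, the latter below all control ventricles, and the part of this shift in the ventricular results was not tested.

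The other genes of the chaperone network were taken from lists, and each was tested in the same fits. The share of all genes past the adjusted P and the 1.5-fold limit (the full rule) was 5.49% in atria and 4.75% in ventricles, and with no fold limit it was 14.6% and 9.94%. Of 9 other HSP70, HSP110 and HSP90 genes 0 passed the full rule in atria and 1 fell in ventricles, and with no fold limit the counts were 0 and 2. The gene that passed the full rule was Hspa1l, which lies 546 bases from Hspa1a on the other strand and encodes a testis-rich HSP70 (18.3 CPM in control and 11.2 CPM in CUG960 +dox ventricles, log2 fold change -0.71, adjusted P = 0.026). In atria its estimate was -0.74 (adjusted P = 0.082), and without V334 it was -0.66 (adjusted P = 0.18) in atria and -0.73 (adjusted P = 0.0503) in ventricles, so the call was lost with an estimate of similar size. None of 5 other small heat shock proteins tested passed the full rule in either chamber, and with no fold limit 1 passed in atria, Hspb11 (0.41, adjusted P = 0.031, or 0.097 without V334; named after its value was seen). Hspb8, the partner of BAG3, averaged 365 and 389 CPM in control and CUG960 +dox atria and 672 and 737 CPM in ventricles, and Hspb6 averaged 265 and 245 CPM in atria and 865 and 772 CPM in ventricles.

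J-domain proteins showed calls in both chambers. Of 12 tested, 1 rose and 1 fell in atria and 2 fell in ventricles by the full rule. With no fold limit 1 was higher and 4 were lower in atria, and 1 was higher and 5 were lower in ventricles. Dnajb2, a J-domain protein that binds ubiquitin chains, fell in both, with log2 fold changes of -0.65 (SE 0.10, adjusted P = 0.0049) and -0.67 (SE 0.09, adjusted P = 0.0031), from 94.0 to 60.1 CPM in atria and from 103 to 64.3 CPM in ventricles. Dnajc7 rose in atria (0.65, adjusted P = 9.8e-04), and its ventricular estimate of 0.52 passed the adjusted P (0.0043) but not the fold limit. Dnajc27 fell in ventricles (-0.87, adjusted P = 0.0035), while in atria it was at -0.58, just under the fold limit (adjusted P = 0.0015). Without V334 the atrial calls were Dnajc7, Dnajb2 and Dnajc27, and the ventricular ones Dnajb2 and Dnajc27.

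None of 20 co-chaperones and exchange factors passed the full rule in either chamber, and 3 in atria and 3 in ventricles passed with no fold limit. Unc45b, the myosin chaperone of striated muscle, had log2 fold changes of -0.13 and -0.22 in atria and ventricles, and Fkbp4, a partner of HSP90, had -0.11 and -0.29. Without V334 the list gave 1 full call in ventricles, Chordc1, an HSP90 co-chaperone (-0.59, adjusted P = 0.0068; named after its value was seen). Of the 4 heat shock factor genes tested 0 passed the full rule, and 2 passed with no fold limit in atria. Hsf1, the main activator of the heat shock genes, went from 21.2 to 14.9 CPM in atria (-0.51, SE 0.08, adjusted P = 0.0049; also -0.51 without V334, adjusted P = 0.019), a change below 1.5-fold, and had -0.24 in ventricles (adjusted P = 0.21). Its binding protein gene Hsbp1 had 0.19 and 0.20 (adjusted P = 0.12 and 0.14). The chaperonin and prefoldin genes gave 0 calls among 14 in each chamber at any fold change, with Tcp1 at 0.16 and 0.08 and Cct7 at 0.02 and -0.04.

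Of 14 genes for BAG3-linked autophagy and its clients 0 passed the full rule, and 4 in atria and 1 in ventricles passed with no fold limit. Flnc, the muscle filamin that BAG3 helps to clear, went from 522 to 350 CPM in atria (-0.58, adjusted P = 0.0047; -0.54 without V334, adjusted P = 0.018), just under the fold limit, and had -0.02 in ventricles (adjusted P = 0.93). Without V334 the atrial call from this list was 1, Flna, another filamin (named after its value was seen). Sqstm1, the autophagy receptor p62, had 0.24 and 0.10 (adjusted P = 0.18 and 0.53). The 12 mitochondrial chaperones gave 0 calls by the full rule between genotypes, and 1 in atria (Clpx, 0.28, named after its value was seen) and 0 in ventricles with no fold limit, with Hspa9 at -0.14 and -0.29 and Hspd1 at 0.01 and -0.04. Immediate early genes gave 0 calls by the full rule among 20 in atria, and 1 higher (Ier3, 0.45) and 1 lower (Socs3, -0.58) with no fold limit (named after their values were seen), with a median log2 fold change of -1.09, which was -0.23 without V334. In ventricles Nr4a1, a nuclear receptor, rose (0.96, SE 0.24, adjusted P = 0.037).

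**Figure D5:**
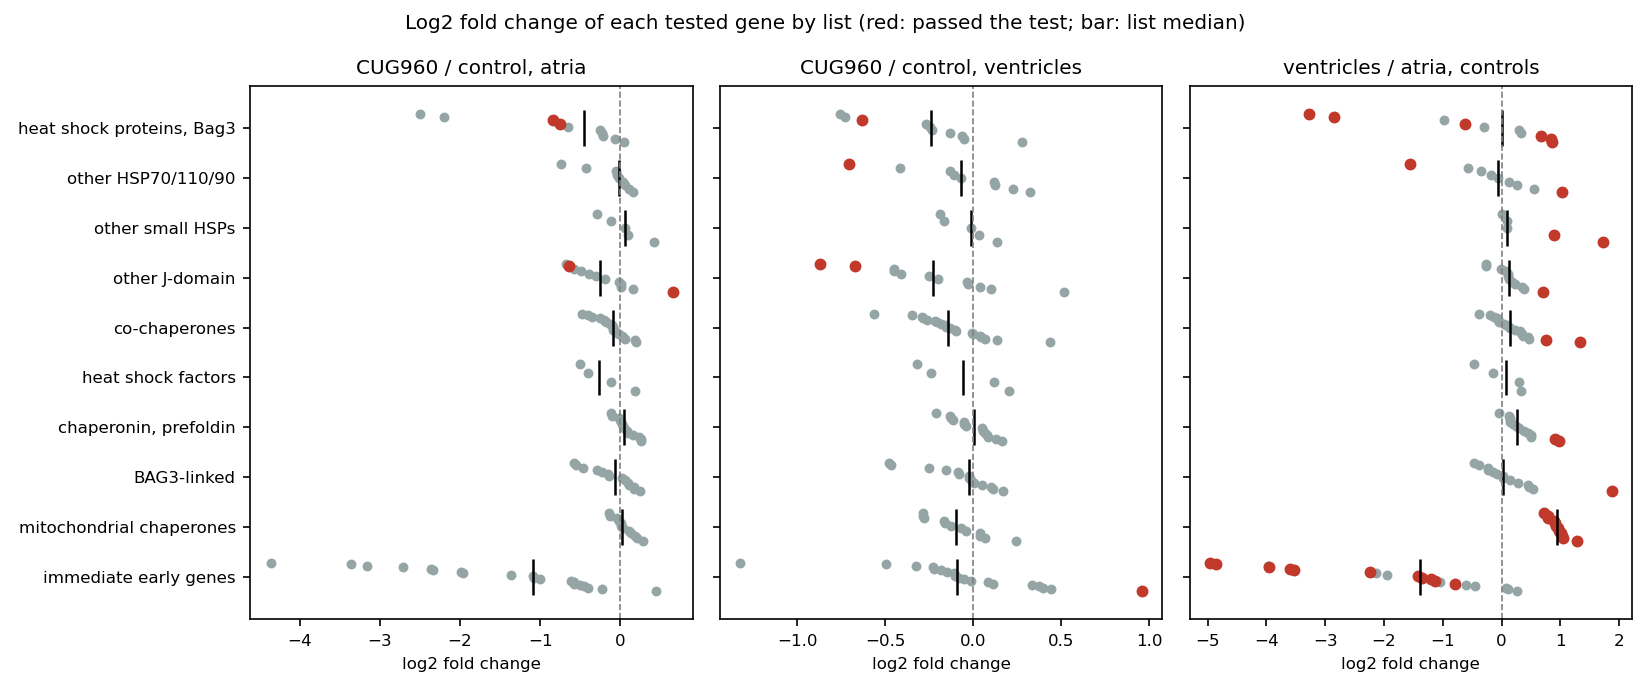
Dots show the log2 fold change of every tested gene by list for CUG960 +dox against control in atria (left) and ventricles (middle) and for ventricles against atria in controls (right), with red dots past the test and bars at list medians. The axes have different ranges. The 12 mitochondrial chaperones are all red at the right, and few chaperone genes are red in the other panels.

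Cell composition was followed with marker lists, since in bulk tissue fewer cells of a type and less RNA per cell cannot be told apart. Endothelial markers summed to 746 to 885 CPM in CUG960 +dox atria against 916 to 1147 CPM in controls, and to 774 to 840 CPM against 949 to 1114 CPM in ventricles, with no overlap in either chamber. Of its 10 genes, Pecam1 (-0.71), which is also the most abundant, and Tek (-0.62) fell in atria and Cldn5 (-0.62) in ventricles. Fibroblast markers summed to 2070 to 2436 CPM in CUG960 +dox atria and 2517 to 2934 CPM in control atria, with Postn (-0.73) and Pi16 (-0.88) lower and the most abundant, Dcn, at -0.18. In ventricles none of the 10 fibroblast markers passed, and the sums were 1510 to 1563 CPM and 1480 to 1708 CPM. Smooth muscle and pericyte markers, led by Rgs5, summed to 748 to 806 CPM in CUG960 +dox and 967 to 1023 CPM in control ventricles, where Myh11 (-0.65), Tagln (-0.63) and Lmod1 (-0.75) fell; in atria Tagln rose (1.21). None of the macrophage markers passed, and Csf1r, the most abundant, was at -0.04 in atria and -0.06 in ventricles. Atrial markers included Gja5, which fell in atria (-1.51), and in ventricles Nppa rose (1.301) and Bmp10 fell (-4.06), while among ventricular markers Hey2 fell (-0.67) and Lbh rose (0.64) in atria. The ventricles of V123 stood apart on 3 other atrial markers, named after their values were seen. Myl7 was at 55.9 CPM there, against 0.192 and 0.304 CPM in V119 and V120 and 4.97 to 19.3 CPM in controls. Myl4 was at 86.2 CPM, against 4.35 and 6.11 CPM and 12.5 to 37.5 CPM. Sln was at 18.5 CPM, against 0.212 and 0.340 CPM and 2.90 to 7.82 CPM. Nppa in ventricles was highest in V120 (224 CPM, against 86.5 CPM in V119 and 151 CPM in V123). Without V334 Tagln (1.08) and Hey2 (-0.69) were not called in atria and Myh11 (-0.53), Tagln (-0.61) and Lmod1 (-0.63) not in ventricles, Tie1 in atria (-0.64) and Smtn in ventricles (-0.59) were called in addition (named after their values were seen), and Pecam1, Tek, Cldn5, Postn, Pi16, Gja5, Lbh, Nppa and Bmp10 were called again. The 5 cardiomyocyte genes went different ways. Myh6 was higher in every CUG960 +dox library than in every control of the same chamber (29474 to 30468 CPM against 25333 to 25965 CPM in atria and 27388 to 27945 CPM against 22772 to 23722 CPM in ventricles). Ryr2, the sarcoplasmic calcium release channel, was lower in both chambers (454 to 670 CPM against 759 to 815 CPM and 469 to 539 CPM against 649 to 944 CPM). Actc1, cardiac actin, was lower in CUG960 +dox atria (3904 to 4356 CPM against 4611 to 5390 CPM) and overlapped in ventricles, Tnnt2, cardiac troponin T, was lower in ventricles (4842 to 5949 CPM against 6130 to 8037 CPM) and overlapped in atria, and Tnni3 overlapped in both. No defining marker was at 0 in all libraries, and the part of these shifts in the results on heat shock genes was not tested.

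The genes whose levels followed a member most closely were found by Pearson correlation of log2 CPM across the 12 libraries, among 13064 genes. These values are a description, since the libraries share mice, chambers and genotypes. For Hspa1a they were Hspa1b (0.996), Il6ra (0.952), which encodes the interleukin 6 receptor, and F13a1 (0.939), a coagulation factor chain. For Bag3 they included Hpcal1 (0.970) and Acvrl1 (0.958), a receptor for BMP ligands. Cryab was followed by Mecr (0.982), an enzyme of mitochondrial fatty acid synthesis, Aldoa (0.978), a glycolytic aldolase, and Plin5 (0.9749), a lipid droplet protein.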

How the data were processed

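Gene-level counts of 12 libraries were analysed. Per the study's methods the libraries were poly(A) selected and stranded with paired reads of 150 bases, and the authors deposited expected counts per gene made with RSEM 1.3.1 on GRCm38 (the submitters' processing notes also name DESeq2); the deposited values were whole numbers and were used as such. No reads were reprocessed. All 12 columns matched a labelled sample.

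Counts were tested with edgeR 4.0.16 (quasi-likelihood, TMM scaling, filterByExpr) in R 4.3.3 over all genes, for CUG960 +dox against MHCrtTA +dox within each chamber (6 libraries), for ventricles against atria in controls (6 libraries) and for the chamber by genotype interaction (12 libraries). P values are two-sided and Benjamini-Hochberg adjusted over all genes tested, and a call needed an adjusted P below 0.05 and a fold change of at least 1.5, with no fold limit for the interaction. SE denotes the standard error of the log2 fold change. Alternatives were DESeq2 1.42.0, other scalings, filters and fold limits, each mouse left out, Hspa1a and Hspa1b summed, and the mouse as a replicate block. Libraries of the same mouse share an animal: their deviations from group means correlated at 0.058 to 0.348 (median 0.224), against -0.401 to 0.320 for different mice. Replicates are different mice. The pipeline was tested on simulated data with known changes. The simulated libraries had no pairing by mouse and no outlying library, so that test does not cover these features of the data. Gene positions, exon lengths and transcripts came from GENCODE M21 and promoters from RefSeq, both on GRCm38.

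The 10 genes and all lists were chosen with earlier results of these data known. Genes named from a list were those that passed in either chamber, or, where none did, the 2 with the highest mean CPM; marker lists also give their most abundant gene, and for Hspa1a, Bag3 and Cryab the 3 genes correlated best by log2(CPM + 0.5) are named (genes averaging under 1 CPM were left out, and 1 of the genes for Bag3 is not reported here). The human transgene RNA was not analysed here.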

Additional observations from a re-analysis of the deposited data

How the results depend on the processing

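The count of members called in atria (2) was 4 without a filter on low counts, 4 with all 12 libraries in a single fit, 0 at a log2 fold change limit of 1.5 and 0 to 2 when each mouse was left out. In ventricles (1) it was 2 without the filter, 0 at that limit and 0 to 1 when each mouse was left out. The interaction count (0) became 1 with the mouse as a replicate block, and 1 with the block and without V334, an alternative chosen after seeing the data. The block moved no other count, though in the chamber comparison it exchanged Hspb1 for Dnajb1. The chamber count (6) was 2 at a log2 fold change limit of 1.5. The other alternatives left these counts within 1.5 times. For most alternatives the share of all genes called is not given, so their counts have no background beside them. Over the gene lists, the alternatives moved 89 counts of calls by more than that and left 361.

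Leaving out each mouse changed the sign of some estimates, none of which passed the test with all libraries. In atria the ranges were -0.0599 to 0.15 for Hsph1, -0.19 to 0.0211 for Hspa8 and -0.95 to 0.24 for Dnajb1. In ventricles they were -1.07 to 0.0754 for Hspa1a, -0.24 to 0.175 for Dnajb1, -0.30 to 0.000864 for Hspb1 and -0.15 to 0.0328 for Bag3. For the interaction they were -0.15 to 0.13 for Cryab, -0.0637 to 0.88 for Dnajb1 and -0.0242 to 0.30 for Hsp90aa1. With the block and without V334 the Dnajb1 interaction was -0.0556. Without a mouse an arm keeps 2 libraries, so these fits test less. The cause of these moves was not tested beyond the libraries named.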
